A study of Ovis aries with 15 samples.

Results

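The ruminal epithelium of lambs on a pelleted high-grain diet (HP) was compared with that of control lambs (CON). The comparison took the libraries labelled HP and CON, 5 of each, which are 10 of the 15 libraries of the study. Every library was RNA-seq of ruminal epithelium from male lambs of the Hu breed aged 6 months, and this breed, sex and age were shared by all groups. The remaining 5 libraries carried the label HG. They entered the fitted model and the median-ratio scaling, and their levels are given below only where set beside those of HP and CON. The meaning of the labels was read from the title of the study, which names pelleted and non-pelleted high-grain feeding, so HP was taken as the pelleted and HG as the non-pelleted diet. The composition of the diets, the time on feed and the number of animals behind each library were not given in the sources used here. Labels did not state that each library was a separate animal, so p-values measure the spread between libraries. That spread was pooled over CON, HG and HP. Of 19304 genes in the deposited tables, the 12566 with at least 1 FPKM in at least 5 of the 10 libraries were tested. FPKM counts fragments per length of transcript and per size of the library.

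The rumen is lined by a stratified squamous epithelium. Basal cells anchored by hemidesmosomes divide and feed a suprabasal compartment tied together by desmosomes and tight junctions, and the uppermost layers cornify. The same cells take up the acids of microbial fermentation, exchange protons and bicarbonate with the lumen, and oxidise butyrate to ketone bodies in their mitochondria. Grain is fermented quickly and lowers the pH of the rumen fluid, and pelleting changes the physical form in which the grain is eaten. Growth factors act on such epithelia through RAS, RAF, MEK and ERK in sequence. Type I interferon acts through JAK1, TYK2 and STAT proteins to switch on a large set of antiviral genes.

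Defining markers placed the material in the labelled tissue. The basal keratins were abundant, with KRT5 at 1133 to 2382 FPKM in CON and 656 to 1798 in HP, while the T cell marker CD3E stayed between 2.62 and 10.6 over the 10 libraries. TGM1, the transglutaminase of cornifying cells, was listed at or near 0 in 8 libraries, at 2.11 in CON5 and at 184.1 in CON3. Smooth muscle transcripts differed by library within each group: the summed level of 13 smooth muscle genes was 2274, 1062 and 4172 FPKM in CON1, CON5 and HP5 and 254.3 to 394 in the other 7. In bulk tissue, fewer cells of a type and less RNA per cell cannot be told apart. Libraries CON1 and CON3 stood apart in a second way. Their median FPKM was 1.98 and 1.52 against 2.51 to 3.18 in the other 8, and their median-ratio scaling factors were 0.849 and 0.687 against 0.965 to 1.12. Both also lay lowest on the first principal component, which held 45.2% of the variance. The medians of the gene lists are therefore given with these libraries and without them.

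Over all genes, the typical transcript was higher in HP than in CON on FPKM but not after median-ratio scaling. The median log2 fold change was 0.18 on FPKM and -0.02 after median-ratio scaling, and 68.8% of genes had a positive and 31.2% a negative fold change on FPKM against 47.9% after scaling, where 52.1% were negative. By limma on log2(FPKM + 1) with Benjamini-Hochberg adjustment, 1 gene rose and 1 fell, each 0.00796% of the 12566 tested. The gene that rose was MAP2K1 and the gene that fell was CD5L, on FPKM and after scaling alike. At an unadjusted p under 0.05 there were 2882 higher genes (22.9%) and 679 lower genes (5.4%). After scaling these were 1509 (12%) and 1776 (14.1%). The 10 libraries did not overlap for 338 higher genes (2.69%) and 105 lower genes (0.836%), and for 161 (1.28%) and 95 (0.756%) on both scales. The number of calls turned on single libraries. Without CON2 the adjusted test called 1876 higher and 345 lower genes, and without any one of CON1, CON3, CON5 or the HP libraries it called none, with an unadjusted p under 0.05 for 1714 to 3066 higher and 459 to 1001 lower genes. Without CON1 and CON3 it called none either, with a smallest adjusted p of 0.391 and an unadjusted p under 0.05 for 813 higher (6.47%) and 371 lower (2.95%) genes. Each group below is read against these background shares.

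MAP2K1 encodes MEK1, the kinase that phosphorylates and activates ERK. Its level in HP was 70.4, 66.8, 83.9, 85.7 and 72.8 FPKM in replicates 1 to 5, the order of every series of 5 values here, and in CON it was 19.7, 24, 16.1, 28.5 and 26.9. The lowest HP library lay above the highest CON library, so the groups did not overlap, and CON1 and CON3 were the lowest of all. The ratio of the group means was 3.29. The log2 fold change was 1.70 ± 0.23 (SE) with a limma adjusted p of 0.0213, and 1.46 with 0.029 after scaling. Over 36 alternative settings the fold change stayed between 1.40 and 1.78 while the adjusted p ranged from 0.00143 to 0.503, and 14 of the 36 kept it under 0.05. When each of the 10 libraries was left out in turn, the call held without CON2 or CON4 and was lost without each of the others, at an adjusted p of up to 0.114. Without CON1 and CON3 together the fold change was 1.48 with an adjusted p of 0.391.

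**Figure D1:**
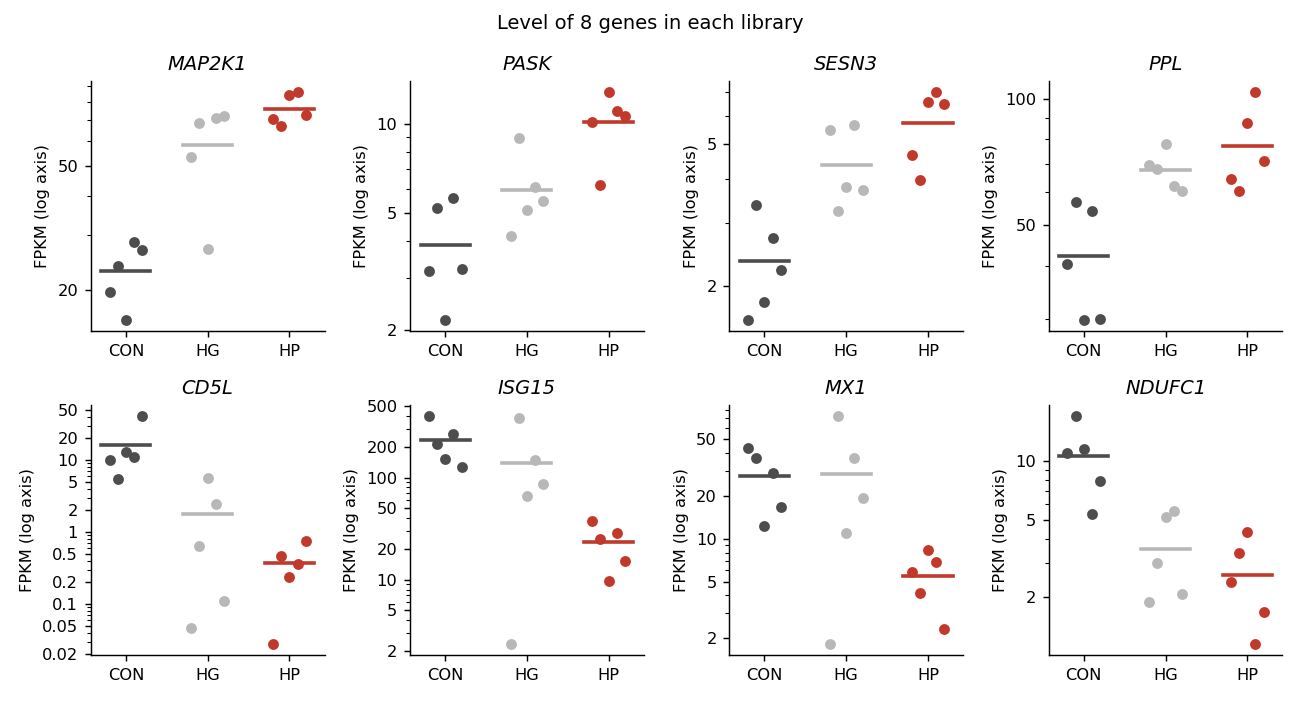
FPKM on log axes of 8 genes in each library of CON, HG and HP, with each point a library and each bar the mean of 5 libraries. In all 8 panels the CON and HP points do not overlap; MAP2K1 lies at 16.1 to 28.5 FPKM in CON and 66.8 to 85.7 in HP, and CD5L at 5.46 to 40.9 and 0.0283 to 0.761.

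The rest of the RAS-ERK pathway differed less evenly. Of 57 genes tested, 48 had a positive fold change, 22 were higher with an unadjusted p under 0.05 and 2 were lower. That is 38.6% higher against 22.9% of all genes. The median log2 fold change was 0.39 against 0.18 over all genes, 0.18 against -0.02 after scaling, and 0.15 against 0.06 without CON1 and CON3. MAP2K1 was the 1 member past the adjusted threshold.

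Among the receptors, 6 of 9 were higher at an unadjusted p under 0.05 (66.7% against 22.9% of all genes), and 4 after scaling (44.4% against 12%). ERBB2, the partner receptor of the epidermal growth factor family, was 24.1, 18.7, 29.3, 27.6 and 31.1 FPKM in HP and 15.8, 20.3, 10.6, 16.4 and 13.7 in CON, and only CON2 reached into the HP range. The growth factor receptor IGF1R was 9.61 ± 2.79 FPKM in HP and 4.54 ± 2.87 in CON (SD, n = 5 each). Both receptors had a limma adjusted p of 0.0956.

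Of the 12 kinases and scaffolds, 5 were higher and 1 lower at that level. MAP2K2, which encodes MEK2, was 35.5 ± 4.46 FPKM in HP and 35 ± 6.3 in CON, with a log2 fold change of 0.03 ± 0.13 (SE). Of the RAF kinases upstream of MEK, ARAF was 10.9 to 12.6 FPKM in HP and 8.2 to 10.2 in CON, without overlap on FPKM, but the groups overlapped after scaling. PEBP1, an inhibitor of the step from RAF to MEK, was 62.2 ± 21.7 FPKM against 89.3 ± 27.7. Over the whole list 3 members were higher without overlap on FPKM (5.26% against 2.69% of all genes). Beside MAP2K1 and ARAF, the third was ETV5, a transcription factor induced by ERK signalling that was named after its values were seen. It was 1.33 to 1.93 FPKM in HP and 0.539 to 1.22 in CON. Of 17 feedback and target genes, ETV5 included, 3 were higher at an unadjusted p under 0.05 (17.6% against 22.9%). The median log2 fold change of the 17 was 0.33, 0.10 after scaling and 0.05 without CON1 and CON3, against 0.06 for all genes.

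**Figure D2:**
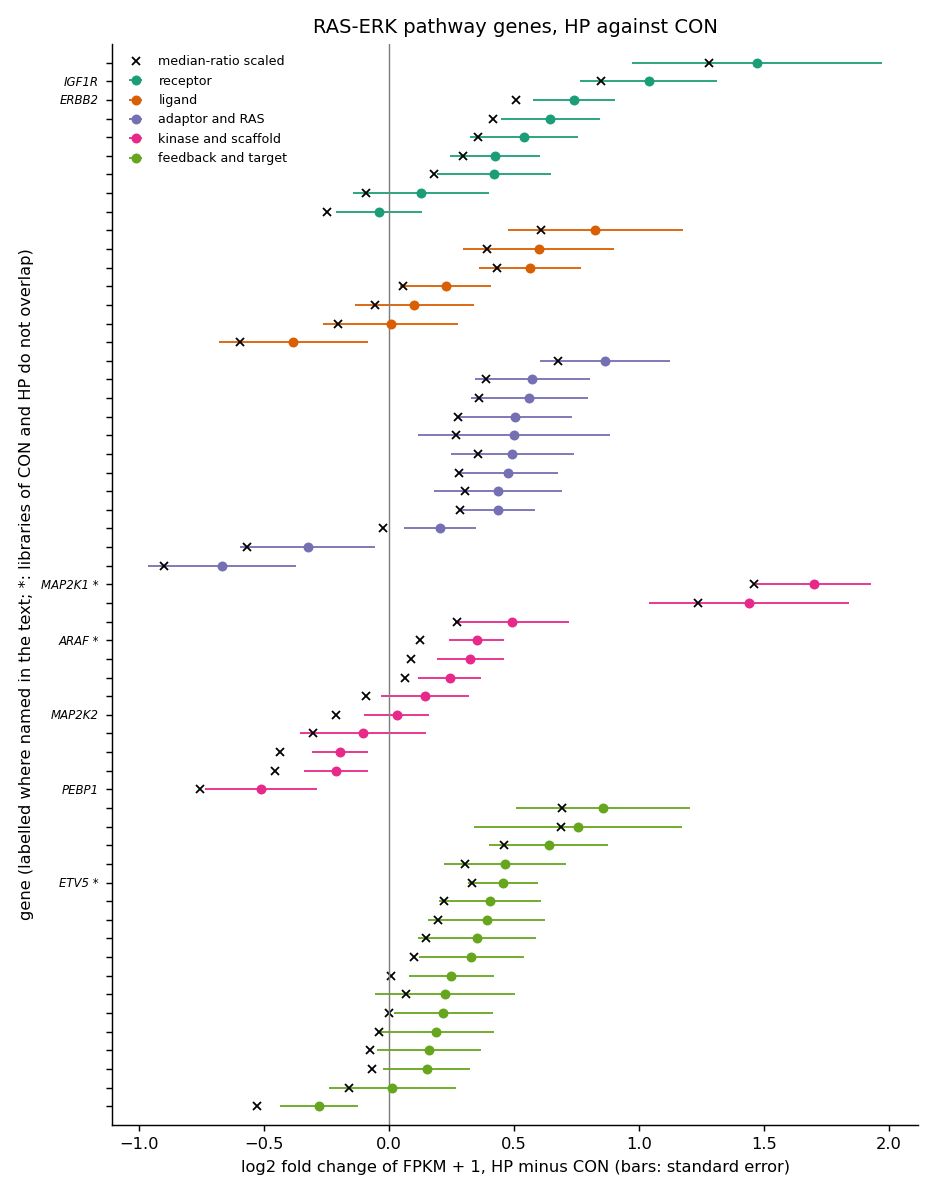
Log2 fold change of FPKM + 1, HP minus CON, for the 57 RAS-ERK genes tested, grouped by role, with bars for the standard error and crosses for the median-ratio scaled value. MAP2K1 at 1.70 has the largest value, 48 of 57 points lie right of 0, and the crosses lie to the left of the points; genes described in the text are labelled.

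CD5L, a protein secreted by tissue macrophages that limits their death and shapes their handling of lipids, fell. In CON it was 10.1, 5.46, 13, 11 and 40.9 FPKM and in HP 0.0283, 0.459, 0.235, 0.357 and 0.761. Every HP library was under 1 FPKM and every CON library above 5, so the groups did not overlap, with CON5 the highest. The mean of CON was 43.7 times that of HP. The log2 fold change on the scale of FPKM + 1, which understates changes of genes this low, was -3.36 ± 0.50 (SE) with a limma adjusted p of 0.0404, and -3.52 with 0.029 after scaling. Of 36 alternative settings 10 kept the call, with fold changes from -5.02 to -2.96 and adjusted p from 0.00632 to 0.503. Leaving out single libraries, the call held without CON2 and was lost without each of the other 9, and without CON1 and CON3 together the fold change was -3.46 with an adjusted p of 0.391.

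Most other macrophage genes differed less, and on FPKM few reached an unadjusted p under 0.05. Of 16 tested, CD5L included, 4 were lower and 1 was higher at the unadjusted threshold of 0.05, or 25% lower against 5.4% of all genes. After scaling 7 were lower (43.8% against 14.1% of all genes) and 0 higher, and 14 had a negative fold change. The median log2 fold change of the 16 was -0.44, -0.63 after scaling and -0.50 without CON1 and CON3. The 3 chains of complement C1q, which macrophages make, had the same direction. C1QA was 48.7, 20.1, 28.8, 37.2 and 17.3 FPKM in HP and 46.1, 43.4, 52.9, 57 and 74.2 in CON, with HP1 inside the range of CON and the other 4 below it. C1QB was 38.2 ± 12.3 against 64.2 ± 13.6 FPKM, and C1QC 44.5 ± 16.2 against 76.1 ± 16.1 (SD, n = 5 each). CSF1R, the receptor of the macrophage growth factor, went the other way, at 13.7 ± 5.76 FPKM in HP and 8.52 ± 2.44 in CON, with HP1 the highest at 23.6. The adjusted p of these 4 genes lay between 0.108 and 0.144 by limma. The summed level of 17 macrophage genes was 117 to 276 FPKM in HP and 222 to 389 in CON, and none of them was at 0 in all 10 libraries. The part of macrophage number in the fall of CD5L was not tested.

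Interferon-stimulated genes were lower in HP as a group, with effectors at the front. Of 42 tested, 36 had a negative fold change, 15 were lower at an unadjusted p under 0.05 (35.7% against 5.4% of all genes) and 3 were higher. The libraries did not overlap for 10 lower members (23.8% against 0.836%), and for 17 after scaling (40.5% against 1.87%). None passed the adjusted threshold of limma on either scale, and 22 were lower at an unadjusted p under 0.05 after scaling. The median log2 fold change was -0.42, -0.60 after scaling, and -0.72 without CON1 and CON3, so the difference was larger without these libraries. Summed over 48 genes, the level was 1147, 811, 533, 1029 and 629 FPKM in CON and 411, 346, 405, 459 and 312 in HP. The highest HP library lay under the lowest CON library on FPKM. As a share of all FPKM of a library the groups overlapped, at 0.0828% to 0.205% in CON and 0.0661% to 0.0961% in HP. The summed level in HG was 259.3 to 1536 FPKM, and the spread of HG enters the standard errors and p-values here.

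ISG15, a ubiquitin-like protein conjugated to other proteins after interferon, had the largest fold change of the list. It was 400.4, 215, 154, 267 and 128 FPKM in CON and 37.9, 24.8, 9.65, 28.9 and 15.2 in HP. The highest HP library lay far below the lowest CON library, the ratio of means was 9.99, and the log2 fold change was -3.29 ± 0.94 (SE) with a limma adjusted p of 0.0956. USP18, the protease that removes ISG15 and damps the receptor, was 16.5, 14.8, 6.08, 20 and 6.59 FPKM in CON and 3.3, 1.39, 3.11, 2.84 and 1.88 in HP, again without overlap. MX1, a GTPase that blocks viral replication, was 43.5, 36.7, 12.2, 29 and 16.7 FPKM in CON and 5.85, 4.13, 8.38, 6.89 and 2.31 in HP. CON3, at 12.2, came closest to HP, whose highest value was 8.38 in HP3. The log2 fold changes of USP18 and MX1 were -1.88 ± 0.60 and -2.08 ± 0.67 (SE).

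The other effectors without overlap covered several antiviral activities. IFIT3, which binds foreign RNA with its relatives, was 0.874 ± 0.621 FPKM in HP against 5.42 ± 2.06 in CON. OAS1, the enzyme that makes the activator of RNase L, was 28.6 ± 4.34 against 69.5 ± 19.7 FPKM. RSAD2 (viperin) was 0.628 ± 0.315 against 4.16 ± 2.9, and IFI35 14.1 ± 1.99 against 31.6 ± 14.8 (SD, n = 5 each). IFI6, a small membrane protein, was 25.2, 12.2, 56.6, 26.3 and 17.6 FPKM in HP and 156, 73.6, 57.3, 145 and 75.6 in CON, and HP3 at 56.6 lay just under CON3 at 57.3. IFI44L was 0.4 to 1.21 FPKM in HP and 1.62 to 3.42 in CON. Outside the list, BST-2A, a sheep form of the tetherin gene that holds budding virus at the cell surface, was 2.97 to 6.68 FPKM in HP and 15.6 to 41.1 in CON, also without overlap. Of the 23 effectors, 22 had a negative fold change, 8 did not overlap and their median log2 fold change was -0.81, or -0.997 after scaling and -0.83 without CON1 and CON3.

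**Figure D3:**
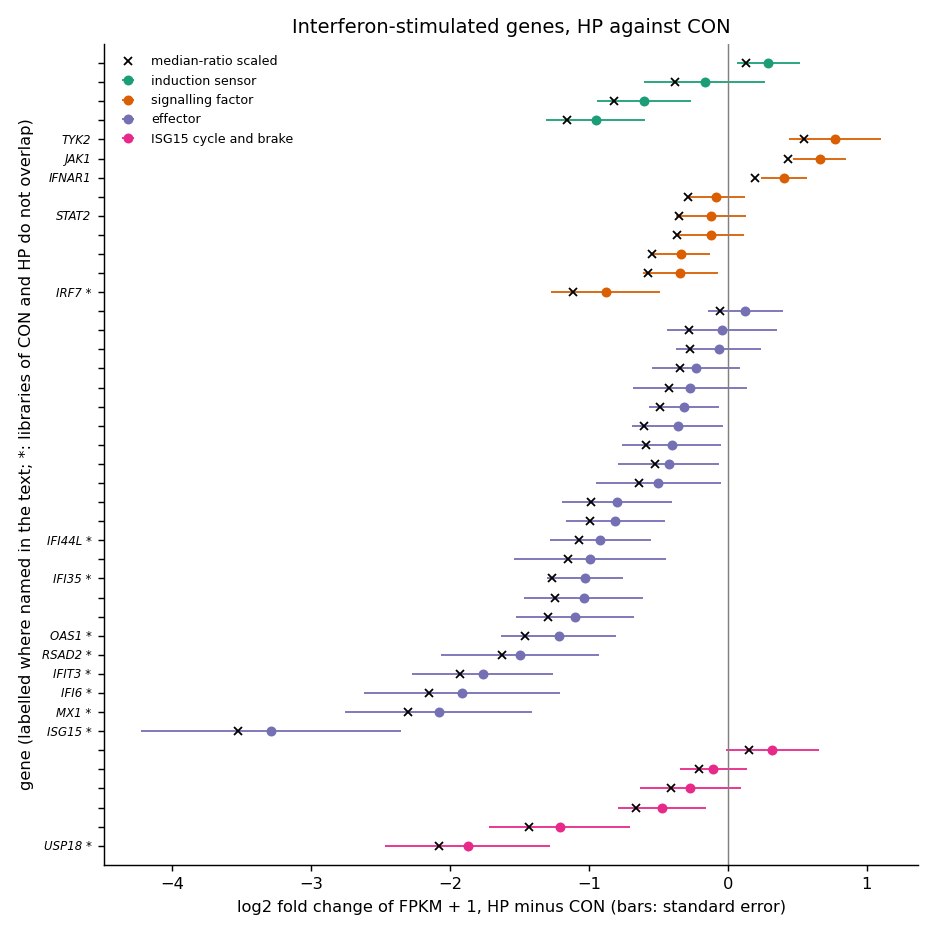
Log2 fold change of FPKM + 1, HP minus CON, for the 42 interferon-stimulated genes tested, by role, with standard errors, and crosses for the median-ratio scaled value. Asterisks mark the 10 genes whose CON and HP libraries do not overlap; ISG15 at -3.29 lies farthest left and 36 of 42 points lie left of 0; genes described in the text are labelled.

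The signalling factors upstream of these effectors did not share their size. Of 9 tested, the median log2 fold change was -0.12. JAK1, the kinase on the interferon receptors, was 24.3 ± 3.91 FPKM in HP and 15.5 ± 4.98 in CON, higher in HP with a limma adjusted p of 0.0956. The following 4 were named after their values were seen. The receptor chain gene IFNAR1 and the kinase gene TYK2 had log2 fold changes of 0.40 ± 0.17 and 0.77 ± 0.33 (SE). The transcription factor gene STAT2 was 17.2 ± 3.11 FPKM in HP and 19.8 ± 7.54 in CON (SD, n = 5 each). IRF7, the transcription factor that amplifies interferon production and is itself induced by it, was 8.3 to 15.2 FPKM in HP and 16.6 to 37.4 in CON, without overlap.

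Genes of antigen presentation, many of which interferon also induces, had a median log2 fold change of -0.29 over 13 tested. The median was -0.51 after scaling and -0.39 without CON1 and CON3. At an unadjusted p under 0.05, 3 were lower (23.1% against 5.4% of all genes). B2M, the invariant chain of class I molecules, was 509.7, 588, 412, 852 and 328 FPKM in HP and 922, 1369, 838, 1692 and 985 in CON, and only HP4 at 851.5 reached the lowest CON library. PSMB10, a subunit of the immunoproteasome, was 13.4 ± 3.56 FPKM against 24.3 ± 6.97. CTSS, the protease that prepares class II molecules, was 9.51 ± 5.68 against 25.1 ± 12. OLA-I, a class I gene of sheep, was 71, 80.4, 100.6, 8.44 and 82.6 FPKM in HP and 269, 207, 459, 204 and 150.2 in CON, without overlap; class I genes are many and alike, so reads may be shared among them and this value is uncertain.

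Of 15 cytokine and chemokine genes, 2 were lower at an unadjusted p under 0.05 (13.3% against 5.4% of all genes). The median of the 15 was -0.19, -0.39 after scaling and -0.38 without CON1 and CON3. CXCL10, a chemokine induced by interferon, was 1.13, 0.893, 0.705, 1.63 and 0.806 FPKM in HP and 4.11, 4.29, 3.4, 5.74 and 2.71 in CON, without overlap and with a limma adjusted p of 0.0956. CCL20, a chemokine of stressed epithelium, was 1.23, 7.04, 4.24, 9.61 and 0.484 FPKM in HP and 7.67, 16.9, 8.32, 16 and 9.68 in CON, with HP4 inside the range of CON. Of 11 T and NK cell genes, 9 had a negative fold change on FPKM against 31.2% of all genes, and 11 after scaling against 52.1%. Their median was -0.11, -0.30 after scaling and -0.27 without CON1 and CON3. At an unadjusted p under 0.05, 0 were higher and 0 lower on FPKM, and 1 was lower after scaling. Their summed level was 22.1 to 70.4 FPKM in HP and 34.6 to 61.2 in CON, and their part in the interferon difference was not tested.

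Genes that sense nutrients and energy held 3 higher genes without overlap on FPKM, 14.3% of 21 against 2.69% of all genes. PASK, a kinase that responds to metabolic state, was 10.1, 6.19, 12.8, 11.1 and 10.6 FPKM in HP and 3.18, 5.2, 2.17, 5.62 and 3.21 in CON. The sestrin genes encode stress-induced proteins that restrain the growth kinase complex mTORC1. SESN3 was 4.66, 3.97, 6.59, 7 and 6.48 FPKM in HP and 1.6, 3.37, 1.8, 2.73 and 2.22 in CON, and SESN2 was 5.06, 6.28, 3.92, 4.62 and 3.41 against 2.57, 2.47, 1.55, 3 and 0.556. None of the 3 overlapped between groups on either scale. Their log2 fold changes were 1.21 ± 0.23, 1.01 ± 0.19 and 0.95 ± 0.28 (SE), each with a limma adjusted p of 0.0956. TSC1, which also holds mTORC1 in check, was 7.25 ± 1.64 FPKM in HP and 3.56 ± 2.58 in CON, with CON2 and CON4 inside the range of HP. Over the 21 genes of the list, 7 had an unadjusted p under 0.05 in the higher direction (33.3% against 22.9% of all genes) and 0 in the lower. After scaling 4 were higher (19% against 12%) and 0 lower. The median log2 fold change of 0.26 was close to the 0.18 of all genes. The median was 0.09 after scaling and 0.10 without CON1 and CON3.

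Among structural genes of the epithelium, those of the basal layer and desmosomes leaned higher in HP, and keratins and gap junctions had medians below that of all genes on FPKM. For the basal layer and its hemidesmosomes, 16 of 17 genes had a positive fold change and 14 were higher at an unadjusted p under 0.05 (82.4% against 22.9%). The median log2 fold change was 0.60, 0.37 after scaling and 0.42 without CON1 and CON3. None of the members was free of overlap, and the level summed over 17 genes, in which the keratins weigh most, was 2077 to 4830 FPKM in HP and 2774 to 4204 in CON. COL17A1, the collagen that crosses the basal membrane at hemidesmosomes, was 85.8, 59.4, 102, 86.9 and 110.3 FPKM in HP and 37.2, 73.7, 36.8, 63.4 and 50.9 in CON, where HP2 lay among the CON libraries. COL7A1, which forms the anchoring fibrils below, was 43.8 ± 8.08 FPKM against 20.8 ± 10.8. CD151, a tetraspanin partner of laminin-binding integrins, was 24.2 ± 5.13 against 15.9 ± 3.23, and the laminin chain gene LAMA3 14.4 ± 2.82 against 9.24 ± 2.54 (SD, n = 5 each).

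All 11 desmosome genes tested had a positive fold change on FPKM, against 68.8% of all genes. At an unadjusted p under 0.05, 7 were higher on FPKM (63.6% against 22.9%) and 2 after scaling (18.2% against 12%). Without CON1 and CON3, 2 of the 11 were higher at that level, against 6.47% of all genes. For the list the median was 0.48, 0.25 after scaling and 0.26 without CON1 and CON3. PKP1, a desmosomal plaque protein, was 106, 134, 198, 189.9 and 157 FPKM in HP and 36.4, 123, 18.1, 118 and 71.5 in CON. The spread of CON was wide, from 18.1 in CON3 to 122.6 in CON2. PKP2 was 3.26 to 4.77 FPKM in HP and 2.05 to 2.82 in CON, without overlap. PPL encodes periplakin, which links keratin filaments to desmosomes and the cornified envelope. Its level was 64.5, 60.2, 87.5, 104 and 71.2 FPKM in HP and 40.5, 56.8, 29.8, 54 and 30 in CON, without overlap on either scale, with a log2 fold change of 0.88 ± 0.19 (SE) and a limma adjusted p of 0.0956.

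Adherens and tight junction genes had median log2 fold changes of 0.46 over 10 genes and 0.43 over 17, and of 0.23 and 0.23 after scaling. Without CON1 and CON3 the medians were 0.29 and 0.17 against 0.06 for all genes. At an unadjusted p under 0.05, 7 and 8 were higher on FPKM (70% and 47.1% against 22.9% of all genes). After scaling these were 3 and 2 (30% and 11.8% against 12%). Without CON1 and CON3 they were 1 of 10 and 1 of 17, against 6.47% of all genes. CTNND1 (p120 catenin) was 97.8 ± 17.4 FPKM in HP and 59.4 ± 22.1 in CON, and CDH1 (E-cadherin) was 43.2 ± 8.87 against 29.1 ± 9.21. TJP3, a tight junction scaffold, was 25.8 to 33.2 FPKM in HP and 16.6 to 25.9 in CON, with only CON1 reaching HP. CLDN1, a sealing claudin, was 108 ± 24.6 against 72.1 ± 20.2.

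Among regulators of epithelial differentiation, the share with an unadjusted p under 0.05 in the higher direction was above that of all genes for the Notch pathway and below it for transcription factors. Each of the 12 Notch pathway genes tested had a positive fold change on FPKM. At an unadjusted p under 0.05, 8 were higher (66.7% against 22.9% of all genes) and 5 after scaling (41.7% against 12%). The median was 0.41, or 0.20 after scaling and 0.30 without CON1 and CON3. The receptor gene NOTCH3 was 20.8, 20.3, 28, 23.8 and 23.1 FPKM in HP and 8.08, 19.9, 4.12, 15.6 and 11.6 in CON, without overlap, although CON2 at 19.9 was close to HP2 at 20.3. JAG1, a ligand of Notch, was 15.2 ± 3 FPKM against 9.91 ± 2.86. Of 19 epithelial transcription factor genes, 3 were higher at an unadjusted p under 0.05 (15.8% against 22.9% of all genes) and 0 lower, and the median log2 fold change was 0.33, 0.10 after scaling and 0.11 without CON1 and CON3. KLF4, a transcription factor of the differentiating layers, was 63.6, 63.7, 77.6, 74.8 and 71.8 FPKM in HP and 31.6, 58.7, 19.9, 57.1 and 38.9 in CON, without overlap. PAX9, a transcription factor of the foregut epithelium, was 50, 49.9, 60, 52.4 and 60.9 in HP and 22.5, 62.4, 12.4, 23.1 and 17.4 in CON, where CON2 exceeded every HP library. The limma adjusted p of NOTCH3, KLF4 and PAX9 was 0.0956.

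The 16 cornified envelope genes, by contrast, had a median log2 fold change of 0.16, and -0.08 after scaling. Without CON1 and CON3 it was 0.22. Of 12 keratin genes, 7 had a positive fold change on FPKM and 5 after scaling. An unadjusted p under 0.05 was reached by 1 higher and 1 lower gene (8.33% each, against 22.9% and 5.4% of all genes). The median was 0.12, -0.11 after scaling and 0.13 without CON1 and CON3. The 5 gap junction genes had a median of 0.10, -0.14 after scaling and -0.06 without CON1 and CON3. A2ML1, a protease inhibitor of the upper layers, was 744, 1520, 1419, 1343 and 1025 FPKM in HP and 677, 797, 705, 972 and 359.5 in CON. KRT4, a keratin of non-cornified suprabasal cells, was 31.5, 13.6, 4.51, 2.65 and 49.3 in HP and 1.33, 0.857, 2.58, 6.94 and 2.17 in CON. It was high in HP1, HP2 and HP5, and HP3 and HP4 lay within the range of CON.

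**Figure D4:**
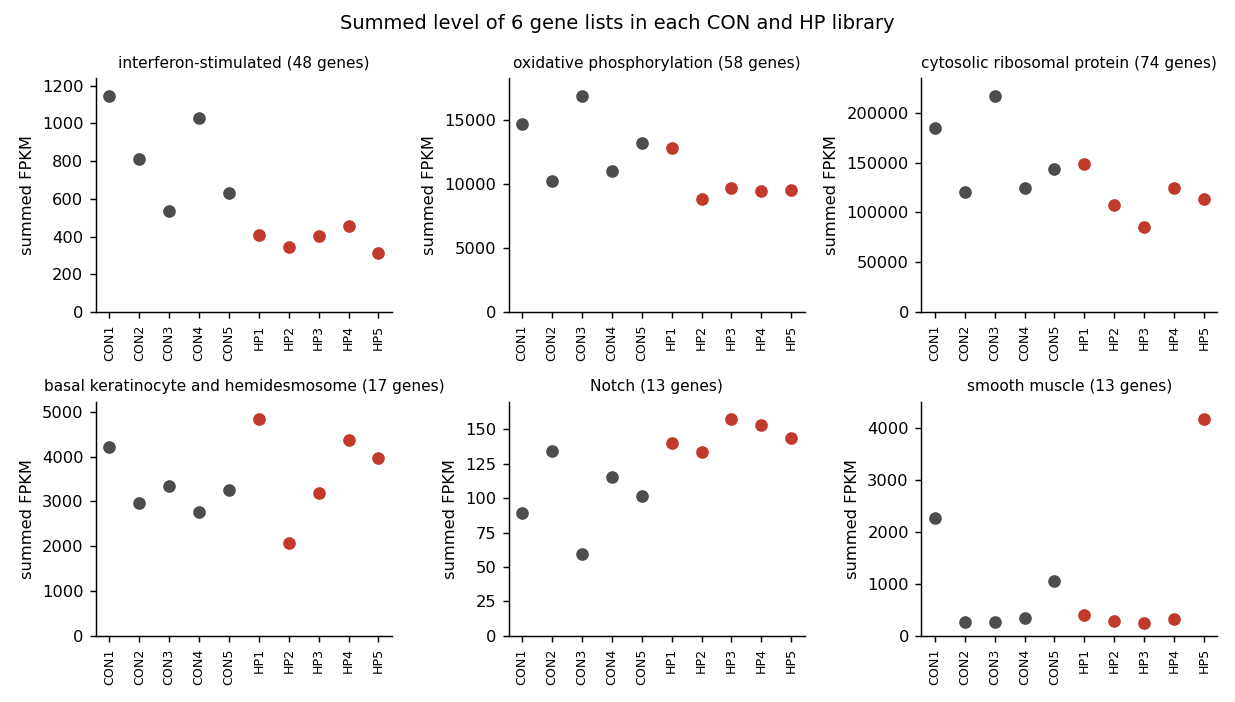
Summed FPKM of 6 gene lists in each library, CON in grey and HP in red. The interferon list lies at 533 to 1147 FPKM in CON and 312 to 459 in HP without overlap; CON1 and CON3 are the highest for ribosomal proteins and lowest for Notch, and smooth muscle is high in CON1, CON5 and HP5.

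Genes that move protons and bicarbonate across the epithelium had mostly positive fold changes on FPKM, and after scaling their calls were near the share of all genes. Of 22 tested, 19 had a positive fold change against 68.8% of all genes. On FPKM 8 had an unadjusted p under 0.05 in the higher direction (36.4% against 22.9%) and 1 in the lower (4.55% against 5.4%). After scaling these were 3 (13.6% against 12%) and 3 (13.6% against 14.1%). On the log2 scale the median fold change was 0.44, 0.26 after scaling and 0.27 without CON1 and CON3. SLC9A3 (NHE3), the sodium/proton exchanger of absorptive surfaces, was 27, 55.5, 100.2, 70.3 and 74.7 FPKM in HP and 12.3, 36, 5.23, 38.1 and 14.4 in CON. HP1 lay below CON2 and CON4, and the other 4 HP libraries lay above all of CON. The log2 fold change was 1.77 ± 0.45 (SE).

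SLC4A2, a chloride/bicarbonate exchanger, was 26.6, 20.9, 22, 20.9 and 21.2 FPKM in HP and 13.9, 19.1, 11.9, 17.5 and 17.7 in CON. This was the 1 member of the list without overlap, with HP1 the highest. CA3, a carbonic anhydrase best known from muscle, was 6.87, 23.3, 9.82, 5.49 and 10.2 FPKM in HP and 1.96, 8.76, 2.56, 3.24 and 1.5 in CON, where CON2 lay within the range of HP. HP5, where the smooth muscle genes were highest, had a CA3 level of 10.2, between HP3 at 9.82 and HP2 at 23.3. Both genes and SLC9A3 had a limma adjusted p of 0.0956.

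Of 17 genes for cation, urea and water transport, 4 were higher at an unadjusted p under 0.05 (23.5% against 22.9% of all genes). At that level 0 were lower. The median was at the level of all genes (0.18), -0.04 after scaling and 0.02 without CON1 and CON3. TRPV3, a cation channel of the rumen wall, was 7.12 ± 2.15 FPKM in HP and 3.52 ± 1.43 in CON. SCNN1A, the alpha subunit of the epithelial sodium channel, was 9.53 ± 2.67 against 6.42 ± 0.332, and the water channel AQP1 was 56.5 ± 14.6 against 34.1 ± 17 (SD, n = 5 each).

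Genes of the respiratory chain were lower in HP, as read mainly from complexes I, II and V. Of 39 genes listed for complexes II to V, 20 were matched by name. Most of those listed for complexes III and IV were not matched. Of 57 oxidative phosphorylation genes, 53 had a negative fold change and 31 were lower at an unadjusted p under 0.05 (54.4% against 5.4%), or 46 after scaling (80.7% against 14.1%). The median log2 fold change was -0.39, -0.64 after scaling and -0.18 without CON1 and CON3, where 9 were lower at that level against 2.95% of all genes. None passed the adjusted threshold of limma. The summed level of 58 genes was 14720, 10270, 16920, 11030 and 13190 FPKM in CON and 12850, 8858, 9674, 9448 and 9561 in HP. CON1 and CON3 were the highest and HP1 lay among the CON libraries.

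NDUFC1, a small accessory subunit of complex I, was 2.4, 3.38, 4.31, 1.16 and 1.67 FPKM in HP and 11, 17, 11.5, 5.33 and 7.93 in CON, without overlap. Its log2 fold change was -1.68 ± 0.32 (SE), -1.56 without CON1 and CON3, with a limma adjusted p of 0.0956. SDHD, an anchor subunit of complex II, was 104, 104, 103, 100.1 and 118 FPKM in HP and 137, 135, 128, 167 and 174 in CON, without overlap. The other anchor, SDHC, was 140.9 to 161.6 against 162.5 to 222.9. NDUFV2, a complex I gene, was 38.7 to 50.9 against 52.5 to 80.4. These were among the 5 members without overlap; SDHC was named after its values were seen. NDUFB5, another complex I subunit, was 87 ± 9.12 FPKM against 130.2 ± 29.3.

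Ribosomal protein genes had the same direction, and in both sets the size of the difference depended strongly on CON1 and CON3. Relative to all genes, the oxidative phosphorylation median was -0.57 with CON1 and CON3 and -0.24 without them. For cytosolic ribosomal proteins it was -0.62 and -0.23. The median log2 fold change of 74 cytosolic ribosomal protein genes was -0.44, -0.69 after scaling and -0.17 without those libraries. At an unadjusted p under 0.05, 41 were lower with all libraries (55.4% against 5.4% of all genes). Without CON1 and CON3, 5 of the 74 were lower, against 2.95% of all genes. The cytosolic ribosomal protein genes took up 31.1% and 33.7% of the FPKM of CON1 and CON3, 25% to 26.7% in the other CON libraries and 19.3% to 27.3% in HP. RPL37 was 1171, 692, 589, 1012 and 824 FPKM in HP and 1571, 979, 3014, 1357 and 1686 in CON, and RPS21 1296, 931, 696, 1104 and 996 against 1732, 1196, 2234, 1349 and 1790, with overlap in both. These genes have processed copies in the genome, so reads may be shared and their levels are uncertain.

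For 69 mitochondrial ribosomal protein genes the median was -0.25, and -0.14 without CON1 and CON3, and 18 were lower at an unadjusted p under 0.05. That is 26.1% against 5.4% of all genes. After scaling the median was -0.50, 69 had a negative fold change and 40 were lower (58% against 14.1%). MRPL39 was 34.1 to 42.6 FPKM in HP and 43.5 to 55.9 in CON, and MRPL45, named after its values were seen, 31.4 to 35.3 against 35.6 to 42.5; these were the 2 without overlap. Proteasome subunits had a median of -0.22 over 31 genes, and -0.08 without CON1 and CON3. After scaling the proteasome median was -0.46, with 17 lower (54.8% against 14.1% of all genes). HSPD1, the mitochondrial chaperonin, was 110.3 to 141 FPKM in HP and 143 to 187 in CON, without overlap and with a limma adjusted p of 0.144.

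Genes of fuel use had members in both directions on FPKM and more lower than higher members after scaling. The 29 fatty acid oxidation genes had a median log2 fold change of 0.06, or -0.19 after scaling. An unadjusted p under 0.05 was reached by 3 higher (10.3% against 22.9% of all genes) and 2 lower members (6.9% against 5.4%). After scaling these were 2 higher and 8 lower (27.6% against 14.1% of all genes), and without CON1 and CON3 the median was -0.04. PPARA, the nuclear receptor that drives these genes in liver, was 6.24, 7.24, 7.06, 8.27 and 8.33 FPKM in HP and 3.46, 5.63, 2.3, 4.64 and 3.9 in CON, without overlap on either scale, and ACSL1, which activates long-chain fatty acids, was 2.04 to 3.46 against 0.668 to 2.02. Lower in HP were ETFA, which passes electrons from the acyl-CoA dehydrogenases to the respiratory chain, at 96.2, 185, 136, 138 and 191 FPKM against 251, 209, 192, 213 and 205 in CON, and DECR1, needed for unsaturated fatty acids, at 74.7 ± 18.2 against 103 ± 8.36. ETFA did not overlap. The log2 fold changes were 0.79 ± 0.18 for PPARA and -0.55 ± 0.19 for ETFA (SE), with limma adjusted p of 0.0956 and 0.108.

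Of 12 genes for making ketone bodies from butyrate, 1 had an unadjusted p under 0.05 in the higher and 1 in the lower direction. After scaling 0 were higher and 4 lower (33.3% against 14.1% of all genes). Their median was 0.05, -0.20 after scaling and 0.09 without CON1 and CON3. ACADS, the butyryl-CoA dehydrogenase, was 401, 227, 319, 263 and 599 FPKM in HP and 551, 425, 413, 502 and 462 in CON. ACSS2, which activates acetate, was 15.8 ± 3.64 FPKM in HP and 10.6 ± 2.54 in CON (SD, n = 5 each).

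Within cholesterol synthesis the 19 enzymes had a median of 0.00 and the 9 genes of regulation and uptake 0.45, and -0.24 and 0.21 after scaling and 0.09 and 0.31 without CON1 and CON3. Of these, SREBF2, the transcription factor that switches on the pathway when sterols are low, was 82.2 ± 30.2 FPKM in HP and 51.7 ± 21.8 in CON.

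Connective tissue genes were mostly higher in HP with all libraries. Of 20 fibroblast and collagen genes, 17 had a positive and 3 a negative fold change on FPKM, and 15 and 5 after scaling. At an unadjusted p under 0.05, 11 were higher (55% against 22.9% of all genes) and 0 lower. After scaling 5 were higher (25% against 12%) and 1 lower, and on FPKM without CON1 and CON3 3 were higher. The median log2 fold change of the 20 was 0.57, 0.37 after scaling and 0.18 without CON1 and CON3, a smaller value without those libraries. COL5A2, a collagen V chain, was 17.3, 15.7, 17.6, 19.8 and 19.1 FPKM in HP and 7.78, 14, 5.77, 15.2 and 12.8 in CON, without overlap. COL1A1, the main chain of collagen I, was 546, 447, 453, 374 and 263 against 268, 288, 152, 276 and 241. TNXB, an extracellular matrix tenascin, was 9.06 to 15.8 FPKM in HP and 1.75 to 7.56 in CON, without overlap. All 18 circadian clock genes tested had a positive fold change on FPKM with a median of 0.35, 0.19 after scaling and 0.21 without CON1 and CON3, and 0 were free of overlap. The clock output factor TEF was 19.8 ± 2.74 FPKM in HP and 12.9 ± 4.54 in CON, and the repressor CRY2 13.9 ± 1.4 against 9.61 ± 2.44. Toll-like receptor, cell cycle, glycolysis, endothelial and histone deacetylase lists had medians of 0.25, 0.07, 0.16, 0.18 and 0.21 against 0.18 for all genes, with cell cycle the lowest of these. After scaling these medians were 0.06, -0.16, -0.06, -0.02 and -0.02 against -0.02 for all genes, and without CON1 and CON3 -0.01, -0.02, 0.12, 0.12 and 0.15 against 0.06.

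**Figure D5:**
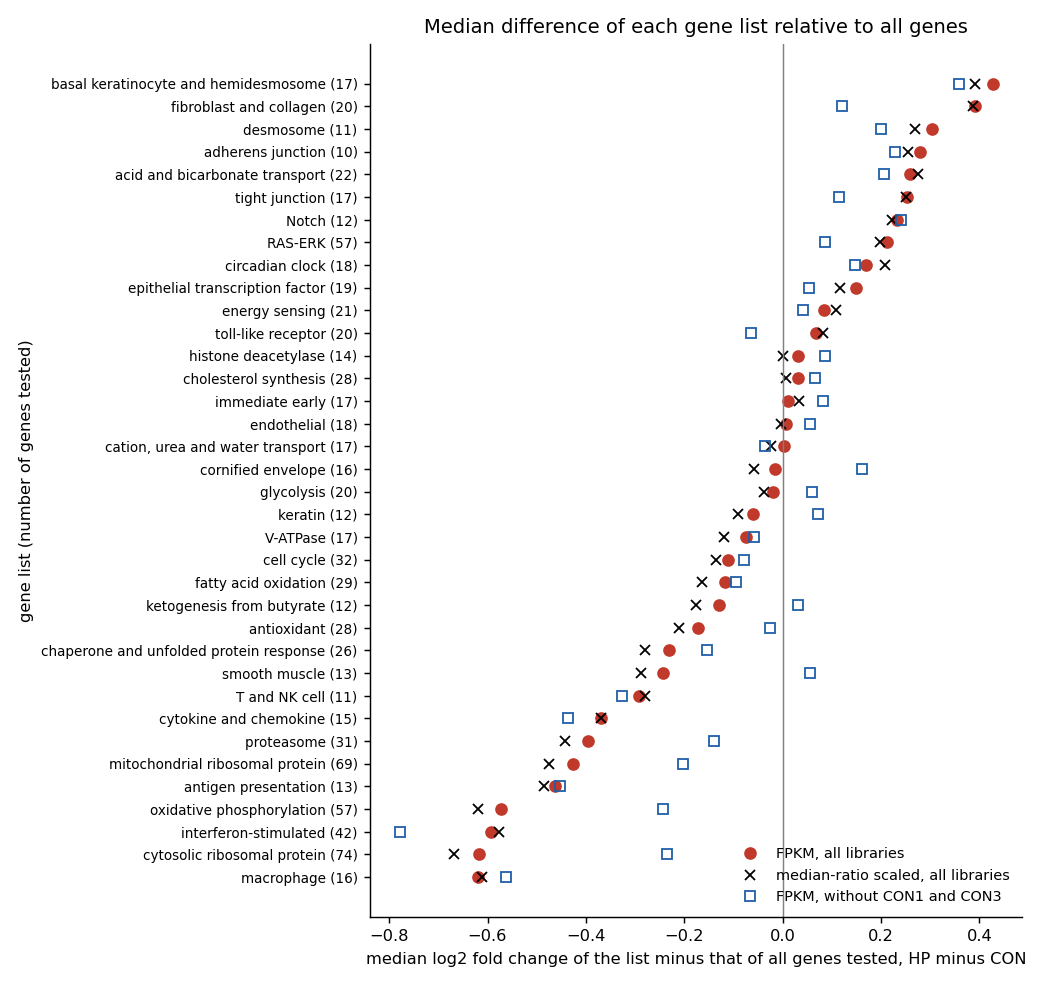
Median log2 fold change of each gene list with at least 10 genes tested, minus that of all genes, HP minus CON. Circles show FPKM with all libraries, crosses the median-ratio scaled values and squares FPKM without CON1 and CON3; the square of the interferon list lies left of its circle (-0.78 against -0.59), and that of cytosolic ribosomal proteins lies right of it (-0.23 against -0.62).

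Beyond the lists, several genes with small p-values did not overlap on either scale. CDK5RAP2, a centrosome protein, was 7.3, 6.25, 6.11, 7.05 and 7.51 FPKM in HP and 2.92, 5.32, 2.56, 3.66 and 3.85 in CON. SMARCA2, an ATPase of the SWI/SNF chromatin remodelling complex, was 9.24, 11.5, 18.4, 15.8 and 21.6 against 3.41, 7.38, 2.95, 8.54 and 5.78. TMEM63B, a stretch-activated ion channel, was 31.6 to 42.4 FPKM in HP and 13.5 to 27.7 in CON, and QSOX2, a sulfhydryl oxidase, 13.8 to 22.1 against 6.67 to 12.1. CRISP3, a secreted cysteine-rich protein, was 57.3, 95.8, 102, 63 and 133 in HP and 39.4, 35.9, 25.4, 12.3 and 29.3 in CON.

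On the lower side, MGST3, a microsomal glutathione transferase, was 896, 888, 735, 771 and 857 FPKM in HP and 1509, 997, 1639, 1253 and 1247 in CON. TRMT112, an activator of several methyltransferases, was 34.5 to 50.1 against 65.6 to 108, SYPL1 14.1 to 25.4 against 32 to 42.3 and SCGB1C1, a secretoglobin, 28.6 to 49.5 against 51.4 to 79.3. HSD17B13, an enzyme of lipid droplets, was 231 ± 69 FPKM in HP and 438 ± 110.4 in CON and overlapped on FPKM. The limma adjusted p of all 10 genes named here beyond the lists was 0.0956, and their log2 fold changes lay between -1.04 for TRMT112 and 1.66 for CRISP3.

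The pelleted and the non-pelleted diet were set side by side for some of the genes above. For the other genes, and for most lists, HG levels are not given here, so differences shared by both diets are not separated. HP and HG are each compared with the same CON libraries, so their differences from CON are not independent. In the direct test of HP against HG, 0 of 12566 genes passed the adjusted threshold of limma, while an unadjusted p under 0.05 was found for 140 higher (1.11%) and 116 lower (0.923%) genes. CA3 had the smallest p of all genes, with 2.08, 1.12, 2.46, 1.3 and 2.55 FPKM in HG, all below the lowest HP library at 5.49. Its log2 fold change from HG to HP was 1.94 ± 0.36 (SE) with an adjusted p of 0.905. KRT4 was 1.47, 1.32, 0.912, 2.99 and 5.07 FPKM in HG, within the range of CON, and PASK was 4.16, 8.95, 5.11, 6.12 and 5.46, with libraries in the ranges of CON and of HP.

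The interferon genes were much more spread in HG. ISG15 was 2.37, 382, 66, 149.6 and 86.9 FPKM there and MX1 1.84, 72.7, 11, 36.7 and 19.5, so that HG1 lay below all HP libraries and HG2 near or above the highest of CON. MAP2K1 was 53.4, 68.3, 27.2, 70.9 and 72.3 FPKM in HG, near the HP level in 4 libraries and near the highest CON library in HG3. CD5L was 0.046, 0.643, 5.56, 2.47 and 0.111 FPKM in HG, from the HP range up to the lowest CON value. The log2 differences of HP minus HG were 0.45 ± 0.23 for MAP2K1 and -0.66 ± 0.50 for CD5L (SE).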

How the data were processed

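The authors deposited 1 table per library of FPKM values for 19304 genes, per the file headers. The tools listed, per the submitters' processing notes, were HISAT2 and StringTie 1.3.4d, with no roles; genome build and annotation were not given in the sources used here. Since FPKM holds no read counts, depth is unknown, and its length scaling and per-library total let a few abundant genes shift all others. Gene names came from the tables (13214) or the RefSeq table of ARS-UI_Ramb_v3.0 (346), used for names only.

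The tested genes reached 1 FPKM in 5 or more of the 10 CON and HP libraries. Values of log2(FPKM + 1) were fitted in R 4.3.3 with limma 3.58.1, with a trend and robust variances (statmod 1.5.0). All 15 libraries entered 1 model of group means, which shares 1 estimate of spread. Benjamini-Hochberg adjustment ran over 12566 genes with a threshold of 0.05. The fit was repeated on median-ratio scaled FPKM. The test was checked on simulated data in which each gene varied independently. That check does not cover shifts shared by many genes of a library.

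The comparison, the 44 gene lists and the rule for named genes were chosen with earlier results of these data known. The rule took, among genes that had a symbol and averaged 5 FPKM or more in CON or HP, those called (up to 12 per direction), the 10 with the smallest p and the 10 with the largest change without overlap, per direction, and 4 members per list with the smallest p at any level, and it let every interferon effector, RAS-ERK kinase or scaffold and defining cell marker be given. It gave 213 genes; the text names some of them and 8 others, and a few are not reported here. Lists are described by counts and medians, with no test of the list. Of list entries, 26 matched through an older symbol and 108 were not analysed here.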

Additional observations from a re-analysis of the deposited data

Results flagged for a closer look

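In 7 of the 188 groups of 5 libraries checked (92 named genes, the scaling factor and the median FPKM, in CON and in HP), 1 library lay far from the other 4. The gap to its nearest neighbour on log2(FPKM + 1), as a share of the range of the group, exceeded 0.71, Dixon's critical value for 5. Chance alone is expected to give this in about 5% of groups, and 7 of 188 is a smaller share than that.

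HP1 was the far library in 2 genes. It was lowest of HP for the kinase gene JAK1, at 17.6 FPKM with a gap share of 0.725, and highest for the bicarbonate exchanger gene SLC4A2, at 26.6 FPKM with 0.779. CON3 was lowest of CON for LAMA3 (4.98 FPKM, 0.733) and for COL1A1 (152 FPKM, 0.723). HP4 was lowest of HP for the class I gene OLA-I, at 8.44 FPKM with a gap share of 0.855. HP3 was highest of HP for PEBP1, at 100.5 FPKM with 0.74, and HP5 was highest for SDHD, at 117.8 FPKM with 0.776.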

How the results depend on the processing

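On FPKM the test called 1 higher and 1 lower gene. The higher count became 0 with array quality weights, 0 with the replicate block and median-ratio scaling together, 0 without CON1 and CON3, 2476 without CON2 and HP1, and 0 without CON1, CON5 and HP5. The lower count became 0 with a pseudocount of 0.1, 0 with no filter on low values, 6 with only the CON and HP libraries, 0 with array quality weights, 0 with the replicate block, 0 with the block and median-ratio scaling, 0 without CON1 and CON3, and 693 without CON2 and HP1. Without CON1, CON5 and HP5, where smooth muscle genes were high, the 1 lower call was a transcript with no name in the files. On scaled FPKM the higher count of 1 became 0 without CON1 and CON3, 1478 without CON2 and HP1, 0 with the replicate block and 0 without CON1, CON5 and HP5; the lower count of 1 became 0, 1603 and 0 under the first 3 of these and 12 with only the CON and HP libraries. Leaving out single libraries gave 0 to 1876 higher and 0 to 345 lower calls on FPKM, and 0 to 805 and 0 to 947 after scaling. CON2 and HP1 were left out because earlier work took smooth muscle genes to be high there; their summed levels in both lay within the 254.3 to 394 FPKM of the 7 low libraries, so the reason for that setting did not hold. The settings without CON1, CON5 and HP5, and those that join scaling with a choice of libraries, were chosen after seeing the data. The cause of these shifts was not tested. Same-numbered libraries correlated at -0.23 to 0.31 and 1 of 5 correlated best with its own number, so the block rests on numbers alone.

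No called gene changed sign under any of the 36 alternatives. Relative to all genes, the interferon list median stayed between -0.78 and -0.51 and the oxidative phosphorylation median between -0.86 and -0.20, the cytosolic ribosomal protein median ranged from -0.88 to -0.05, and the cornified envelope median changed sign in 13 of 36. The 5 libraries per group and the unknown depth limit what can be called, and low genes are compressed by the pseudocount of 1.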
